A study of Mus musculus with 46 samples.

Results

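Tumors of the MC-38 cell line grown in mice in which Pdcd1, the gene of PD-1, had been deleted by tamoxifen (PD-1cKO, 10 tumors) were compared with tumors from mice labelled WT that received the same tamoxifen (10 tumors). These 20 tumors were chosen by their replicate-group labels from the 46 samples of the series, and the comparison was made over protein-coding genes, 21772 of the 48795 genes in the table. The PD-1cKO mice were homozygous for loxP sites around exons 2 and 3 of Pdcd1 and carried a tamoxifen-activated Cre recombinase (creERT2) at the ubiquitously expressed Rosa26 locus, so deletion was not restricted to T cells. They were derived from a C57BL/6N Tac embryonic stem cell line. The controls were littermates labelled WT; mice with the floxed alleles and no Cre were also bred, and the labels do not say which kind these controls were. All mice were female and 8 to 10 weeks old, received MC-38 cells under the skin of the right flank, and were given tamoxifen at 40 mg/kg into the peritoneum on 5 days in a row from day 6 or 7. The labels place the tumors at day 28, as do the paper's table and main figure of these data, which count from implantation. The paper's methods state that the tumors were taken at day 22. Each tumor is 1 sample of whole tissue, and the engineered alleles belong to the host mice.

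PD-1 is an inhibitory receptor that T cells display after activation of their antigen receptor. When its ligands PD-L1 or PD-L2 are bound, it recruits phosphatases that dampen signaling from the T cell receptor and CD28. MC-38 is a colon carcinoma line of C57BL/6 mice that T cells can recognize, and PD-1 blockade is known to release CD8+ T cells against it.

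Values are FPKM divided by the FPKM sum of all protein-coding genes in the tumor, times 1000000 (rescaled FPKM). Transcripts outside protein-coding genes, mostly 7SL RNA, held 42.0% to 77.5% of the FPKM in PD-1cKO tumors and 44.5% to 64.9% in WT tumors (mean 62.5% ± 10.9 against 54.8% ± 6.44, SD, n = 10 each; 2-sided permutation test, p = 0.0680). WT tumors resembled each other more than PD-1cKO tumors did: the median correlation of a tumor with its own group was 0.969 to 0.985 in WT and 0.818 to 0.966 in PD-1cKO. PD-1cKO tumors 8 and 4 stood apart (median r 0.818 and 0.858), with the highest summed T cell, macrophage and matrix levels and the lowest summed cell-cycle and cholesterol-synthesis levels. The sample identifiers fell into 3 runs, of which the first held 7 PD-1cKO tumors and no WT tumor, so this run and the genotype cannot be told apart. The other 3 PD-1cKO tumors, numbered 8, 9 and 10, shared their runs with the 10 WT tumors, but unevenly. PD-1cKO tumor 8 shared the second run with WT tumors 1 to 9, and PD-1cKO tumors 9 and 10 shared the third with WT tumor 10. Values of these 3 PD-1cKO tumors against all 10 WT tumors are given beside the results of the main gene lists. That comparison had no term for the run and is not matched by run. Tumor 8 was the only PD-1cKO tumor of the second run, so these 3 are no check free of the tumors that stood apart. Their summed T cell receptor levels were 845, 236 and 165.5 (highest WT tumor 183). Their summed G2/M cell-cycle levels were 170, 1641 and 1152 (lowest WT tumor 1520). Their summed macrophage levels all lay above every WT tumor. No depth could be derived from FPKM, and precision is given as the spread between tumors.

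Across the 13239 protein-coding genes with a mean of at least 1, 1050 differed between PD-1cKO and WT (7.93%; limma, adjusted p under 0.01 and at least 2-fold). 760 genes (5.74%) were higher and 290 (2.19%) were lower in PD-1cKO tumors. Genes described below as having risen or fallen passed this test. With no fold limit the counts were 1671 higher (12.6%) and 1227 lower (9.27%). An unadjusted limma p under 0.05 was reached by 6854 of the 13239 genes. Counts of list members at that limit, given below, are to be read beside this share. The separation was complete for 174 genes (1.31%) that lay above every WT tumor in 10 of 10 PD-1cKO tumors and for 24 genes (0.181%) that lay below. Without rescaling, 561 genes were higher and 516 lower, so the balance of the directions depended on that step. Leaving out PD-1cKO tumors 4 and 8 left 400 genes, 338 higher and 62 lower. Between the 3 PD-1cKO tumors of the shared runs and WT, no gene reached adjusted p under 0.01, 1026 of 13183 (7.78%) reached adjusted p under 0.05 and 4611 had an unadjusted p under 0.05. With the run as a covariate the counts were 0, 3423 and 5636 of 13239, and all 1050 called genes kept their direction.

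**Figure D1:**
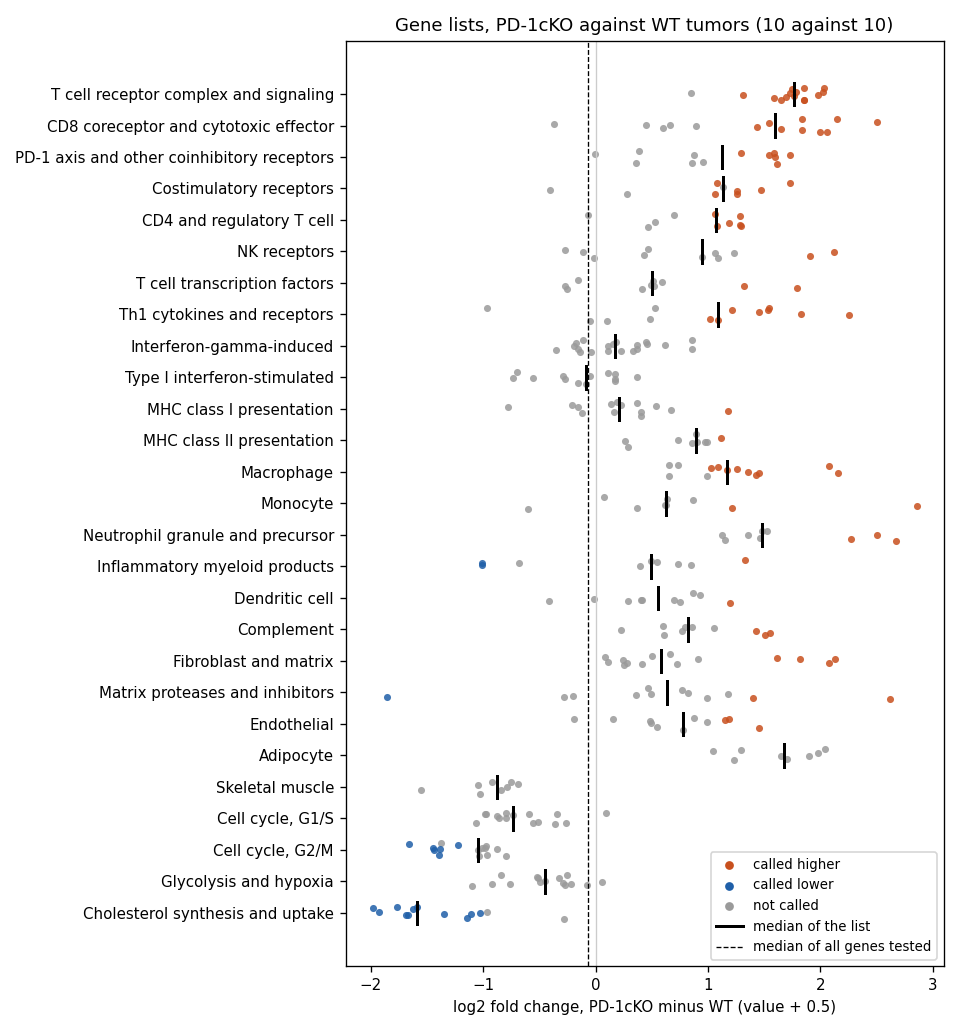
Log2 fold change of each tested member of 27 gene lists, PD-1cKO minus WT, on the x axis; each point is a gene, orange if called higher, blue if called lower and grey if not called, and the black bar is the list median. T cell lists sit to the right of the dashed median of all genes (-0.06), cholesterol and cell-cycle lists to the left, and the interferon-gamma-induced list (median 0.17) near it.

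Pdcd1 itself, on chromosome 1 (94038305 to 94052553, minus strand, GRCm38), ran from 15.5 to 72.4 (median 24.7) in PD-1cKO tumors and from 4.76 to 19.9 (median 8.23) in WT tumors. Its total therefore rose rather than fell, by 1.60 (SE 0.25, adjusted p = 0.00048) on the log2 scale, and 7 of 10 PD-1cKO tumors lay above every WT tumor. A gene total does not measure the deletion. Exons 2 and 3 make up 522 of the 1930 bases (27.0%) of transcript ENSMUST00000027507, a multiple of 3, and reads from the other exons still count toward the gene. The exon borders that would tell an intact from a deleted transcript are shown, 20 bases on each side, with the downstream exon in capitals; the last is the border that joining exon 1 to exon 4 would give.
Exon 1 to exon 2: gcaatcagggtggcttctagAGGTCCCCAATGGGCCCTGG
Exon 3 to exon 4: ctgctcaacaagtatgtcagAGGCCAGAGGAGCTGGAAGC
Exon 1 to exon 4: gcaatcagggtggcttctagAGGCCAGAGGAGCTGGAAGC
Relative to Cd3e, the CD3 epsilon chain carried by T cells, Pdcd1 was 0.43 log2 units lower in PD-1cKO tumors by value, a difference of means that did not pass (permutation test on the ratio within each tumor, adjusted p = 0.0741 over 6 ratios, n = 10 each).

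Genes of the T cell receptor rose. Of 15 tested members of the receptor complex and its proximal signaling, 14 were higher and none lower, with a median log2 fold change of 1.77 against -0.06 over all genes tested. Zap70, the kinase that docks on the activated receptor, ran from 11.5 to 56.6 (median 19.7) in PD-1cKO and from 3.02 to 8.82 (median 4.58) in WT tumors, a log2 fold change of 1.98 (SE 0.25, adjusted p = 0.000413). Cd6, a T cell adhesion receptor, was likewise separated, at 6.21 to 38.96 (median 11.1) against 1.78 to 6.21 (median 2.85). For both, every PD-1cKO tumor lay above the highest WT tumor. Cd3e ran from 6.63 to 57.9 (median 18.9) in PD-1cKO and 2.01 to 16.5 (median 3.89) in WT tumors, and 6 PD-1cKO tumors were above all WT tumors; WT tumor 3 held the highest WT value. Lcp2, an adaptor also used by myeloid cells, was the member not called, being under 2-fold at 0.85 (SE 0.20, adjusted p = 0.00301). A count of 14 was also found without tumors 4 and 8 and when any single tumor was left out. In the 3 PD-1cKO tumors of the shared runs 13 of 15 members reached adjusted p under 0.05, with a median of 2.08. In whole tissue, more T cells and more of these RNAs per T cell cannot be told apart.

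Genes of CD8+ T cells and of cytotoxic granules rose too. Cd8a, the CD8 alpha chain, ran from 18.2 to 90.7 (median 40.4) in PD-1cKO and from 5.38 to 33.04 (median 9.05) in WT tumors, a rise of 2.001 (SE 0.28, adjusted p = 0.000413) on the log2 scale, and Cd8b1 rose by 2.15. Prf1, perforin, separated the groups fully, at 25.2 to 73.3 (median 32.7) against 4.09 to 22.8 (median 8.74), a log2 fold change of 1.84 (SE 0.25, adjusted p = 0.000413). In all, 9 of 14 members of this list rose and none fell (median 1.60), and 8 were called without tumors 4 and 8. An adjusted p under 0.05 was reached by 8 of 14 in the 3 tumors of the shared runs (median 1.78). Gzmb, Nkg7, Ctsw, Fasl and Gzmk were among them, and Gzmk, a granzyme of CD8+ memory-like cells, changed most (2.51). The granzyme cluster on chromosome 14 behaved unevenly: Gzmf rose (log2 change 1.43, SE 0.40, adjusted p = 0.00857), while Gzmc (0.45, adjusted p = 0.164), Gzmd (0.67, adjusted p = 0.237) and Gzmg (-0.37, adjusted p = 0.655) did not pass. These genes are near-identical copies, so reads may be divided among them in error.

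Among receptors of the NK cell family the defining NK genes did not pass, with Ncr1 (NKp46) at -0.27 (SE 0.29, adjusted p = 0.45) and Klrb1c (NK1.1) at -0.02 (SE 0.23, adjusted p = 0.956). Only Klrd1 and Klrc1, the CD94 and NKG2A chains that activated CD8+ T cells also carry, rose among 11 tested members. The list median was 0.95, 8 of 11 members were higher by value, and 6 had an unadjusted limma p under 0.05. In the 3 tumors of the shared runs 3 of 9 had an adjusted p under 0.05 (median 1.27). Klrd1 ran from 8.73 to 113 (median 28.9) in PD-1cKO tumors against 2.49 to 22.2 (median 5.01) in WT, and Klrc1 from 5.61 to 95.8 (median 14.8) against 2.18 to 16.9 (median 4.31). Klra8 was below the filter on low values.

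Of 10 CD4 and regulatory T cell genes 6 rose (median 1.07), 2 without tumors 4 and 8 and 1 with the noncoding share as a covariate; Cd4 lost its call under both. With the 3 tumors of the shared runs alone 2 of 9 had an adjusted p under 0.05 (median 1.01). Cd4 ran from 7.21 to 36.9 (median 10.6) in PD-1cKO and from 4.41 to 8.74 (median 5.57) in WT tumors (log2 change 1.19, SE 0.24, adjusted p = 0.00135). Foxp3, the regulatory T cell factor, lay between 0.300 and 2.63 against 0.208 and 1.10, and its change did not pass (0.70, adjusted p = 0.0259). Within tumors 6 ratios of 2 genes, chosen after values had been seen, were tested with 0.5 added to each value. Cd8a over Cd4 was 0.81 log2 units higher in PD-1cKO tumors (permutation test, adjusted p = 0.00561 over 6 ratios, n = 10 each), and Cd8a over Foxp3 was 1.30 higher (permutation test, adjusted p = 0.00156, n = 10 each). The 3 tumors of the shared runs gave 0.88 and 1.60 (exact permutation, p = 0.0490 and 0.00699, unadjusted, n = 3 against 10). With nothing added, so that the scaling cancels, the differences were 0.81 and 0.99 (permutation test, adjusted p = 0.00892 and 0.0158, n = 10 each), so the size for Foxp3 depended on the added 0.5. Cd4 is also carried by macrophages, and Foxp3 was close to the lowest values measured.

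Several inhibitory and costimulatory receptors of T cells rose. On the inhibitory side 6 of 12 members were higher and none lower (median 1.13), and 6 of 12 had an adjusted p under 0.05 in the 3 tumors of the shared runs (median 0.94). Lag3, which binds MHC class II, was above every WT tumor in all 10 PD-1cKO tumors, at 26.1 to 87.6 (median 36.1) against 4.04 to 24.95 (median 12.96). Tigit (1.59), Ctla4 (1.30) and Tox (1.61), a factor of exhausted T cells, rose, whereas Havcr2 (TIM-3) was at 0.36 (SE 0.18, adjusted p = 0.113). Of the PD-1 ligands, Pdcd1lg2 (PD-L2) rose by 1.55 (SE 0.39, adjusted p = 0.00486) and Cd274 (PD-L1) did not pass (0.86, adjusted p = 0.0157). On the costimulatory side 6 of 9 tested members were higher (median 1.14), among them Icos (1.47), Cd28 (1.26) and Cd27 (1.73). Tnfrsf9 (4-1BB) was at -0.40 (SE 0.31, adjusted p = 0.288), and Cd40lg and Slamf1 were below the filter. The costimulatory count was 2 without tumors 4 and 8 and 2 with the noncoding share as a covariate, and in the 3 tumors of the shared runs 4 of 9 had an adjusted p under 0.05 (median 1.38).

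**Figure D2:**
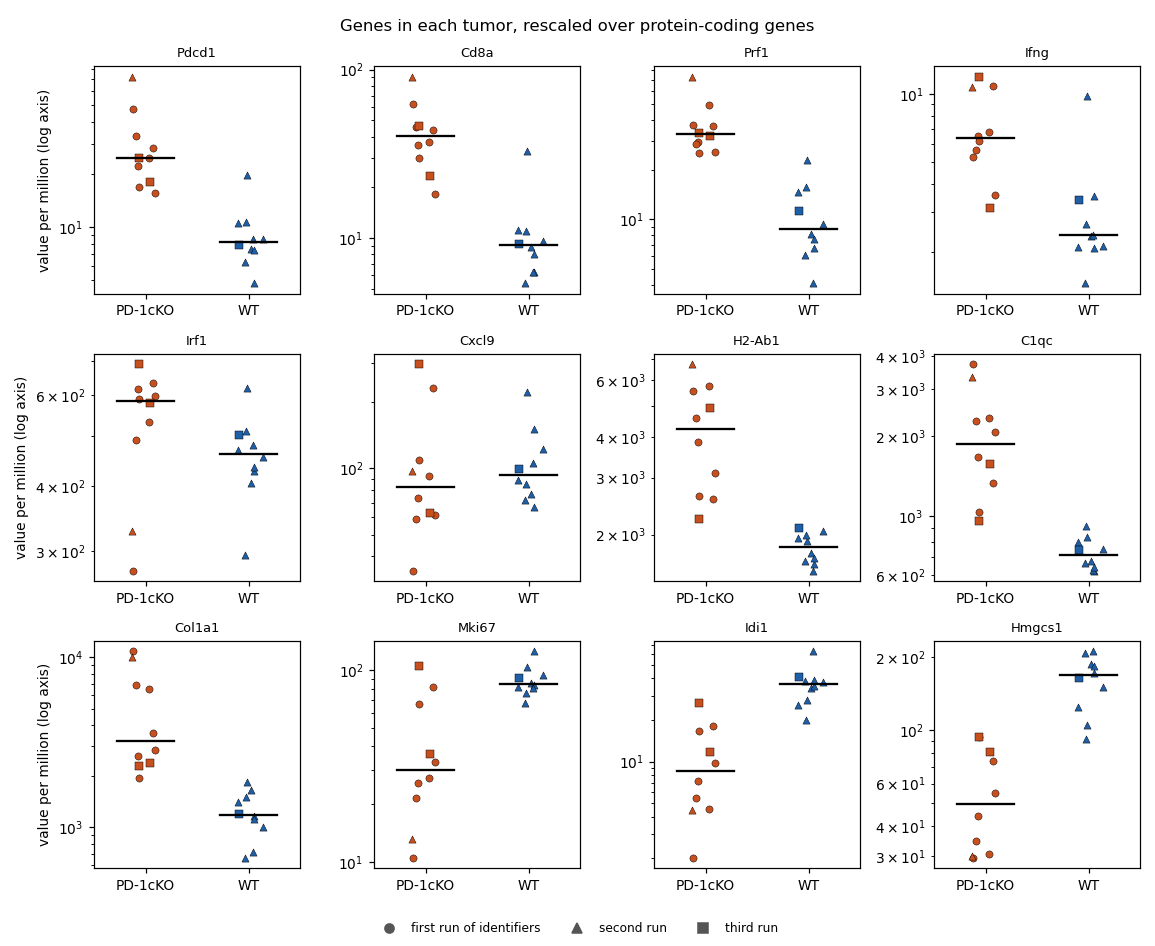
Rescaled FPKM (log axis) of 12 genes in each tumor; circles, triangles and squares mark the 3 runs of sample identifiers in order, and the bar is the group median. Prf1, H2-Ab1, C1qc and Col1a1 are separated in all 20 tumors, while for Irf1 and Cxcl9 the points of the PD-1cKO and WT tumors overlap.

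Genes of type 1 T cells rose, while none of 20 listed genes that interferon-gamma induces was called. Tbx21 (T-bet), the factor that directs this program, ran from 2.58 to 15.9 (median 5.42) in PD-1cKO and from 0.896 to 2.29 (median 1.16) in WT tumors (log2 change 1.79, SE 0.26, adjusted p = 0.00045), with no overlap. Ifng ran from 3.14 to 11.9 (median 6.36) against 1.46 to 9.74 (median 2.38) and rose by 1.09 (SE 0.27, adjusted p = 0.00403), with only 3 PD-1cKO tumors above every WT tumor. The Ifng call was lost without tumors 4 and 8, with FPKM as deposited, at a pseudocount of 2, with a replicate block and when some single tumor was left out. The chemokine receptors Cxcr3 (1.83) and Cxcr6 (2.25) and the chemokines Ccl3 (1.22), Ccl4 (1.46) and Ccl5 (1.53) rose as well. Of 13 tested members of the type 1 cytokine and receptor list 8 rose (median 1.09), and without tumors 4 and 8 the counts were 5 higher and 1 lower. The tumors of the shared runs gave 6 of 13 with an adjusted p under 0.05 (median 1.28). Eomes (0.49, adjusted p = 0.117) and Tcf7 (-0.28, adjusted p = 0.266) did not pass. Of 20 genes that interferon-gamma induces 0 were called by limma (5 had an unadjusted p under 0.05) and 1, the class II transactivator Ciita, had an adjusted p under 0.01 (log2 change 0.86, SE 0.17, adjusted p = 0.000999); the list median was 0.17. Irf1, a transcription factor of the interferon response, ran from 275 to 689.9 (median 586) in PD-1cKO and from 295 to 619 (median 463) in WT tumors (log2 change 0.18, SE 0.16, adjusted p = 0.358), and the chemokine Cxcl9 from 34.3 to 298 (median 82.7) against 66.9 to 221 (median 93.7) (log2 change -0.16, SE 0.31, adjusted p = 0.691). The groups overlapped for both. PD-1cKO tumors 4 and 8 had low summed levels of the list (1751 and 2548, where the PD-1cKO median was 4276), and without them its median was 0.50. In the 3 tumors of the shared runs 1 of 20 members had an adjusted p under 0.05 (median 0.31). Within tumors, Ifng over Cd3e was 0.94 log2 units lower in PD-1cKO (permutation test, adjusted p = 0.00296 over 6 ratios, n = 10 each), Irf1 over Cd3e 1.85 lower (permutation test, adjusted p = 0.00132, n = 10 each) and Gzmb over Cd8a 0.46 lower (permutation test, adjusted p = 0.0327, n = 10 each). In the 3 tumors of the shared runs these differences were -0.86, -1.97 and -0.62 (exact permutation, p = 0.0909, 0.0420 and 0.0420, unadjusted, n = 3 against 10), so that of Ifng over Cd3e did not pass there. Each difference is the log2 change of the first gene minus that of the second. That of Irf1 over Cd3e, with Irf1 itself at 0.18, therefore restates the rise of Cd3e and does not measure Irf1 per T cell. Type I interferon-stimulated genes gave 0 of 13 called by limma (1 with an unadjusted p under 0.05), with a median of -0.09; Ifit1, Ifit3 and Isg15 were at -0.56, -0.74 and -0.09.

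Class II antigen presentation genes were higher in PD-1cKO tumors, mostly by less than 2-fold. The class II genes H2-Aa, H2-Ab1, H2-Eb1 and Cd74 were above every WT tumor in all 10 PD-1cKO tumors, and 7 of 9 tested class II genes had an adjusted p under 0.01 although only H2-Ab1 passed 2-fold (median 0.89). Without tumors 4 and 8, and with the noncoding share as a covariate, 0 of 9 were called by limma (8 had an unadjusted p under 0.05 in all tumors). In the 3 tumors of the shared runs 6 of 9 class II genes had an adjusted p under 0.05 (median 0.94). H2-Ab1 ran from 2238 to 6738 (median 4236) in PD-1cKO and from 1548 to 2098 (median 1836) in WT tumors (log2 change 1.11, SE 0.18, adjusted p = 0.000563). Of 14 class I genes 1 rose, H2-T23, which encodes the nonclassical Qa-1 that NKG2A recognizes, at 393 to 1038 (median 608) against 199 to 360.3 (median 287) (log2 change 1.18, SE 0.16, adjusted p = 0.000413), again without overlap. H2-K1 (0.54, adjusted p = 0.00253) and H2-D1 (0.67, adjusted p = 0.00239) were higher by less than 2-fold, and B2m was at -0.12 (SE 0.13, adjusted p = 0.461). Erap1, which trims peptides for class I, was lower by less than 2-fold (log2 change -0.78, SE 0.18, adjusted p = 0.00292).

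Macrophage genes rose in 9 of 13 tested members (median 1.17), and their summed level was above every WT tumor in all 10 PD-1cKO tumors. C1qc, a chain of complement C1q made by tissue macrophages, ran from 958 to 3736 (median 1869) in PD-1cKO and from 623 to 917 (median 712) in WT tumors (log2 change 1.36, SE 0.21, adjusted p = 0.000471). Trem2, a lipid-sensing receptor, ran from 96.2 to 1109 (median 209) against 31.9 to 93.7 (median 63.4) (log2 change 2.08, SE 0.37, adjusted p = 0.00068), and Apoe, the lipid carrier that such cells secrete, rose by 2.15 (SE 0.35, adjusted p = 0.000542). Csf1r rose by 1.09 and Adgre1 (F4/80) did not reach the threshold (0.66, adjusted p = 0.0112). The count was 5 without tumors 4 and 8 and 5 with the noncoding share as a covariate, and in the 3 tumors of the shared runs 7 of 13 had an adjusted p under 0.05 (median 1.10).

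Other myeloid genes moved in both directions. Of 9 monocyte genes, Ccr2 among them, 2 rose and 0 fell, where 5.74% of all genes were called higher. Their median was 0.63, 8 of 9 were higher by value, and their summed level was above every WT tumor in 8 of 10 PD-1cKO tumors. In the 3 tumors of the shared runs 0 of 9 had an adjusted p under 0.05 (median 0.58). Nos2, which makes nitric oxide, rose, at 55.3 to 181 (median 123) in PD-1cKO against 29.1 to 98.4 (median 42.4) in WT tumors (log2 change 1.33, SE 0.22, adjusted p = 0.000598). Il1b, at 2.61 to 22.8 (median 15.2) against 16.7 to 47.03 (median 21.8), and the neutrophil chemokine Cxcl1, at 2.09 to 8.32 (median 5.50) against 6.85 to 19.5 (median 8.38), fell (log2 change -1.01, SE 0.29, adjusted p = 0.0091 for Il1b and -1.01, SE 0.24, adjusted p = 0.00347 for Cxcl1), each below every WT tumor in 9 of 10 PD-1cKO tumors; both calls were lost without tumors 4 and 8. The monocyte chemokine Ccl2 fell, at 15.1 to 71.6 (median 30.9) against 53.3 to 139.6 (median 76.8) (log2 change -1.27, SE 0.25, adjusted p = 0.00119), its receptor Ccr2 was at 0.07 (adjusted p = 0.852), and Ccl8 rose (log2 change 1.77, SE 0.40, adjusted p = 0.00253). Cxcl16, the ligand of Cxcr6, rose without overlap, at 158 to 498 (median 257) against 109.97 to 149 (median 124) (log2 change 1.07, SE 0.18, adjusted p = 0.000598).

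Neutrophil granule genes were among the largest fold changes, with a wide spread. Ngp ran from 0.148 to 123 (median 2.19) in PD-1cKO and from 0 to 1.30 (median 0.152) in WT tumors, Camp from 0.878 to 106 (median 1.95) against 0 to 2.64 (median 0.220), and Ltf from 0.560 to 105 (median 2.90) against 0.0948 to 1.93 (median 0.429). They rose by 2.67, 2.51 and 2.27 (adjusted p = 0.00577, 0.00457 and 0.00754). Tumor 7 alone held a summed granule-gene level of 492 where the PD-1cKO median was 27.3 and the highest WT tumor had 18.3. The alarmin S100a8 rose by 2.53 (SE 0.70, adjusted p = 0.00812) and S100a9 did not pass (2.65, adjusted p = 0.0148). Chil3, a chitinase-like product of myeloid cells, ran from 23.4 to 1041 (median 90.2) against 4.22 to 86.9 (median 20.5) (log2 change 2.86, SE 0.70, adjusted p = 0.00415), and was at 0.88 in the 3 tumors of the shared runs. Without tumors 4 and 8 no granule gene was called (0 of 9), and at a pseudocount of 2 the count was also 0.

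Few genes of other lymphoid and granulocyte types were called. Of the dendritic cell list 1 of 10 tested members rose, the factor Irf8, at 102 to 302 (median 158) against 58.2 to 95.2 (median 67.1) with no overlap (log2 change 1.19, SE 0.17, adjusted p = 0.000413); Clec9a (0.87) and Batf3 (0.93) did not pass both limits and Xcr1 was below the filter. Cd22 rose (log2 change 1.92, SE 0.29, adjusted p = 0.000471) but the defining B cell genes Ms4a1 and Cd79a were below the filter. Siglecf rose by 2.07 (SE 0.46, adjusted p = 0.00253) among 4 tested eosinophil genes, and limma called 0 of 4 plasma cell genes (1 with an unadjusted p under 0.05). Of 7 mast cell genes limma called 0. All 7 were higher by value (median 0.94), and 6 had an unadjusted p under 0.05, as did 6854 of all 13239 genes tested. In the 3 tumors of the shared runs 3 of the 7 had an adjusted p under 0.05 (median 1.68), and with the run as a covariate 5 did.

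Collagen I and III genes rose. Col1a1, a chain of collagen I, ran from 1954 to 10874 (median 3241) in PD-1cKO and from 661 to 1846 (median 1184) in WT tumors (log2 change 1.82, SE 0.31, adjusted p = 0.000611), and Col1a2 rose by 2.08 (SE 0.35, adjusted p = 0.000609); both were separated in all 20 tumors. Col3a1 (1.62) and Lum (2.13) rose too, 4 of 14 members (median 0.58), with a count of 4 also without tumors 4 and 8. Between the tumors of the shared runs and WT 6 of 14 had an adjusted p under 0.05 (median 0.57). The fibroblast receptors Pdgfra (0.08, adjusted p = 0.685) and Pdgfrb (0.28, adjusted p = 0.176) and the activated-fibroblast genes Fap (0.25, adjusted p = 0.535) and Postn (0.24, adjusted p = 0.472) did not pass. Adamts15, a protease of matrix proteoglycans, ran from 7.24 to 108 (median 19.4) against 1.43 to 7.02 (median 3.26) and was among the largest changes (log2 change 2.62, SE 0.45, adjusted p = 0.000609), Mmp2 rose by 1.40, and the matrix protease Mmp10 fell by 1.86 on the log2 scale. Complement genes C3 (1.51), C4b (1.55) and C2 (1.42) and the endothelial genes Cldn5 (1.45), Vwf (1.19) and Tie1 (1.16) rose, 3 of 10 and 3 of 11 members. All 6 of these calls were lost with the noncoding share as a covariate, and those of C2, Vwf and Tie1 without tumors 4 and 8. In the 3 tumors of the shared runs 3 of 10 complement and 1 of 11 endothelial members had an adjusted p under 0.05 (medians 0.99 and 0.66).

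Markers of tissue beside the tumor varied widely between tumors. Summed over 8 adipocyte markers, PD-1cKO tumors held 37.4 to 6526 (median 182) and WT tumors 27.5 to 559 (median 62.5), and limma called 0 of 8 (6 with an unadjusted p under 0.05) although their median was 1.68. The adipocyte hormone Adipoq was above 0 in every tumor, at 1.13 to 313 (median 7.59) in PD-1cKO and 1.15 to 24.4 (median 2.42) in WT tumors. Tumor 8 alone had 6526, and without tumors 4 and 8 the median was 0.96. The 8 skeletal muscle markers summed to 4.50 to 2819 in PD-1cKO (highest in tumor 5) and 6.94 to 1028 in WT tumors, with 0 called by limma (0 with an unadjusted p under 0.05). Among the 10 largest rises of genes with a mean of at least 5, Gpx3 (a glutathione peroxidase), Clec3b, Fbln7 and Pla2g2d rose by 2.46, 2.49, 2.46 and 2.54. Gpx3 ran from 70.8 to 852 (median 172) in PD-1cKO and from 15.8 to 96.95 (median 35.6) in WT tumors. The part of these tissues in the matrix and complement results was not tested.

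**Figure D3:**
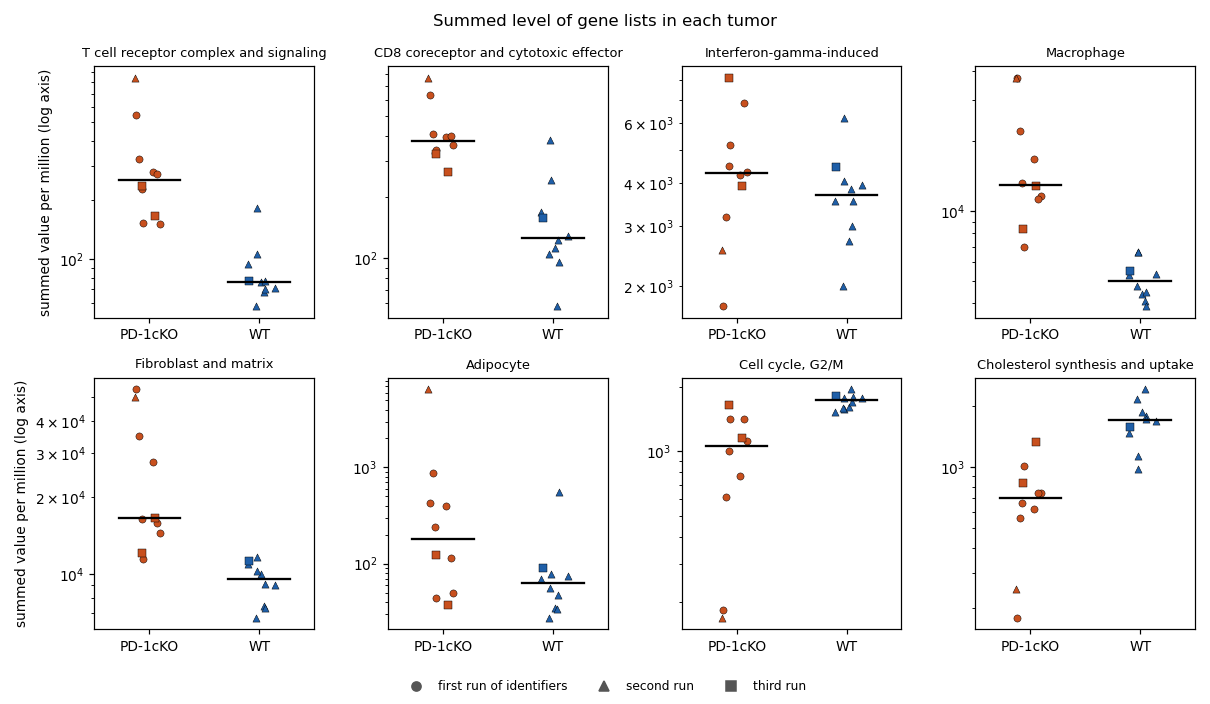
Summed rescaled FPKM (log axis) of 8 gene lists in each tumor, with marker shapes for the run of sample identifiers and bars for group medians. PD-1cKO tumors lie above all WT tumors for the macrophage list and mostly below for the cell-cycle and cholesterol lists; 2 PD-1cKO tumors, 4 and 8, lie far below the rest for G2/M (185 and 170).

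Mitotic genes were lower in PD-1cKO tumors. Of 15 G2/M genes 6 fell and none rose (median -1.05, all 15 below 0), and their summed level was below every WT tumor in 9 of 10 PD-1cKO tumors. Mki67, the proliferation marker Ki-67, ran from 10.52 to 105 (median 30.2) in PD-1cKO and from 67.6 to 125 (median 84.7) in WT tumors (log2 change -1.40, SE 0.32, adjusted p = 0.00261). Bub1, of the spindle checkpoint, ran from 2.67 to 49.3 (median 14.2) against 32.7 to 51.4 (median 46.7) (log2 change -1.66, SE 0.37, adjusted p = 0.00233). Cdk1, the mitotic kinase, was below every WT tumor in all 10 PD-1cKO tumors but just under 2-fold (log2 change -0.98, SE 0.28, adjusted p = 0.00872). The G1/S list had 0 of 15 called by limma (11 with an unadjusted p under 0.05) and a median of -0.74, with Mcm4, Mcm6 and Rrm1 lower at adjusted p under 0.01. Without tumors 4 and 8, 2 of 15 G2/M genes fell and the median was -0.56; leaving out any single tumor gave 2 to 10. Between the 3 tumors of the shared runs and WT the median was -1.24, and 2 members had an adjusted p under 0.05. With the noncoding share of each tumor as a covariate 0 of 15 were called.

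Genes of cholesterol synthesis and uptake fell in all but 2 of 13 cases. Cells make sterols through the mevalonate pathway, whose genes are switched on together by the factor SREBP-2 when sterols run short. Of 13 genes of synthesis and uptake, 11 fell and none rose, where 2.19% of all genes were called lower, and the median was -1.59. Hmgcs1, which feeds the pathway, ran from 29.5 to 93.4 (median 49.3) in PD-1cKO and from 91.6 to 211 (median 168) in WT tumors (log2 change -1.59, SE 0.24, adjusted p = 0.00045), with 8 PD-1cKO tumors below every WT tumor. Idi1, which makes an isoprenoid building block, fell furthest, at 2.005 to 26.4 (median 8.53) against 19.9 to 62.9 (median 36.7) (log2 change -1.98, SE 0.33, adjusted p = 0.000597).
Further along the pathway Fdps, Fdft1 and Sqle fell by 1.69, 1.35 and 1.77 on the log2 scale, and the late steps Cyp51 and Msmo1 fell by 1.93 and 1.66. The sterol-responsive Insig1 (log2 change -1.11, SE 0.19, adjusted p = 0.000635) fell as well. Lss, at -0.96, was just under 2-fold (adjusted p = 0.00293), and Dhcr7 did not pass (-0.28, adjusted p = 0.255). Every tumor left out singly gave 9 to 12 members lower, and 9 were lower without tumors 4 and 8. Between the 3 tumors of the shared runs and WT all 13 members were lower by value and 7 had an adjusted p under 0.05 (median -1.33). With the noncoding share of each tumor as a covariate 3 members remained called.

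RefSeq start-site windows (GRCm38.p6) were at hand for 7 of these 13 genes, 5 of them called lower. The 250 bases before the start are shown for 4 that fell, to let their shared letters be read. Capitals mark CCAAT or its reverse complement ATTGG, the box that NF-Y binds beside SREBP at sterol genes, and in Hmgcs1 also TCACCCCAC, letters of a sterol response element; the motifs do not overlap here.
Idi1 (chr13:8885356-8885605, plus strand): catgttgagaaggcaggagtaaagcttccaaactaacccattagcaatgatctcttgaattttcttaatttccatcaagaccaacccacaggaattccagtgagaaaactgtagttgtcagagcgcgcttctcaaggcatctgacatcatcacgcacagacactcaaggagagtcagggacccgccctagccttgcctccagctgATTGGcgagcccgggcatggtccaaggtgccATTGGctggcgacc
Hmgcs1 (chr13:119690101-119690350, plus strand): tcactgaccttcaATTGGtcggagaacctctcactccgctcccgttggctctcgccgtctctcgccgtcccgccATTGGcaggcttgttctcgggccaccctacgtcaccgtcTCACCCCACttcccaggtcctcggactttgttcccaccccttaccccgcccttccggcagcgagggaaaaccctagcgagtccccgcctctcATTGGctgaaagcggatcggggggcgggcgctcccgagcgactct
Cyp51 (chr5:4104698-4104947, minus strand): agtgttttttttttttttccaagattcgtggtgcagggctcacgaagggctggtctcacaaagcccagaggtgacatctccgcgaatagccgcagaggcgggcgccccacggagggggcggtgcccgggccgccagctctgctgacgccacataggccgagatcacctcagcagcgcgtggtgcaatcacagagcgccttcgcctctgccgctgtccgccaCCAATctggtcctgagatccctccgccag
Msmo1 (chr8:64733579-64733828, minus strand): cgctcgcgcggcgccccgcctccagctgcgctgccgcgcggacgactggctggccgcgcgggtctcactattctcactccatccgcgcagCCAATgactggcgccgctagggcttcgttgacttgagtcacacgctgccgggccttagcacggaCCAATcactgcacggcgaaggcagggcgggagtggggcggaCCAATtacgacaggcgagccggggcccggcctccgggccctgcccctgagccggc
CCAAT was found on either strand in all 7 genes and in 33.8% of the 32851 windows in the table. TCACCCCAC or its reverse complement GTGGGGTGA was found in Hmgcs1 only, and in 0.496% of all windows. A gene was counted if any of its windows matched, whereas the shares are per window, so the units differ. A match describes the letters and does not show binding.

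Few genes of other metabolic and housekeeping groups were called. Glycolysis and hypoxia genes gave 0 of 15 called by limma (4 with an unadjusted p under 0.05; median -0.45), with Pgk1 at -1.10 (SE 0.32, adjusted p = 0.011) and Bnip3 lower by less than 2-fold (log2 change -0.84, SE 0.23, adjusted p = 0.00749). Ribosomal protein genes gave 4 of 82 lower (median -0.27) and nuclear oxidative phosphorylation genes 1 of 75 (median -0.20), where 2.19% of all genes were called lower. With no fold limit, 18 of 82 ribosomal genes were lower and 1 higher at adjusted p under 0.01. For nuclear oxidative phosphorylation, 13 of 75 were lower and 2 higher, where 9.27% of all genes were lower. Each summed level was below every WT tumor in 7 of 10 PD-1cKO tumors. The chaperone Hsp90aa1 fell (log2 change -1.32, SE 0.26, adjusted p = 0.00124). Of the 10 largest falls among genes with a mean of at least 5, 6 were cholesterol genes; the kinase Rps6ka6 (-1.77) and the vomeronasal receptor gene Vmn1r139 (-1.85) were others.

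The cultured MC-38 cells of the same series give the level of the called genes in the cancer cells in culture, which can differ from that inside a tumor. Protein-coding genes held 92.3% to 92.6% of the FPKM of the cultures and 22.5% to 58.0% of that of the PD-1cKO and WT tumors. The mean of the 3 cultures exceeded the WT tumor mean for 5.66% of the 760 genes that rose, 81.0% of the 290 that fell and 46.1% of all genes tested. In culture 69.5% of the genes that rose were under 1, against 4.83% of those that fell and 15.1% of all. Genes higher in PD-1cKO tumors were mostly lower in the cultured cells than in WT tumors, and genes lower were mostly higher there; the cultures were prepared apart from these tumors, so the levels are set side by side with no test.

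**Figure D4:**
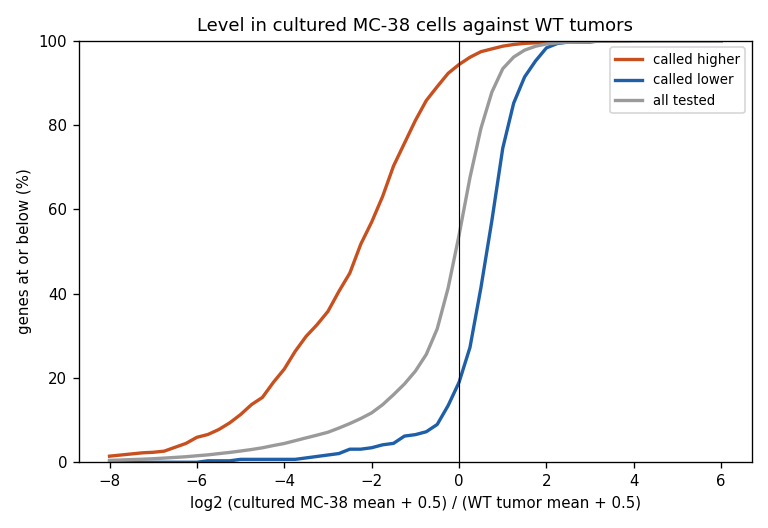
Cumulative share of genes (y axis, %) by their level in cultured MC-38 cells over WT tumors (x axis, log2) for the 760 genes called higher, the 290 called lower and all 13239 tested. The curve of the genes called higher lies far to the left (median -2.30) and that of the genes called lower to the right (median 0.65).

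The response was set against that to PD-1 antibody (5 mg/kg, 2 doses, 5 tumors against 5 isotype tumors) by a contrast of both changes over 13325 genes. 3 genes differed (0.0225%; limma, adjusted p under 0.01 and 2-fold), all less induced in PD-1cKO: the Fc receptor Fcgr4 (difference -1.70, SE 0.27, adjusted p = 0.00516), the B cell and myeloid receptor Cd72 (-1.49, SE 0.24, adjusted p = 0.00516) and Il12b (-1.84, SE 0.31, adjusted p = 0.00516). With no fold limit 4 genes (0.03%) were lower. Adjusted p was under 0.05 for 17 genes (0.128%) and unadjusted p for 1780. The interferon-gamma-induced list had a median of 1.81 with antibody and 0.17 in PD-1cKO, all 20 members were lower in PD-1cKO by value, as were 64.1% of all genes, and 2 members had an adjusted p under 0.05, among them Gbp2b (-3.11, SE 0.56, adjusted p = 0.0135). The median difference over all genes was -0.15, and -0.02 with median-of-ratios scaling. The T cell receptor list had medians of 2.12 and 1.77, and no member reached 0.05. The 3 calls were lost with median-of-ratios scaling and when isotype tumor 1, 2 or 3, antibody tumor 1, 2, 3 or 4, or WT tumor 7 was left out, and 0 to 10 genes were called over all such omissions. The libraries of that experiment held 94.3% to 95.3% of their FPKM in protein-coding genes. Its tumors are labelled day 8, a count that starts at the first antibody dose. The label day of the PD-1cKO and WT tumors counts from implantation of the cells, so the label days are on different scales. The antibody and isotype mice were wild-type, and no tamoxifen is listed for them. The experiment, the tamoxifen and the way of losing PD-1 therefore cannot be told apart.

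**Figure D5:**
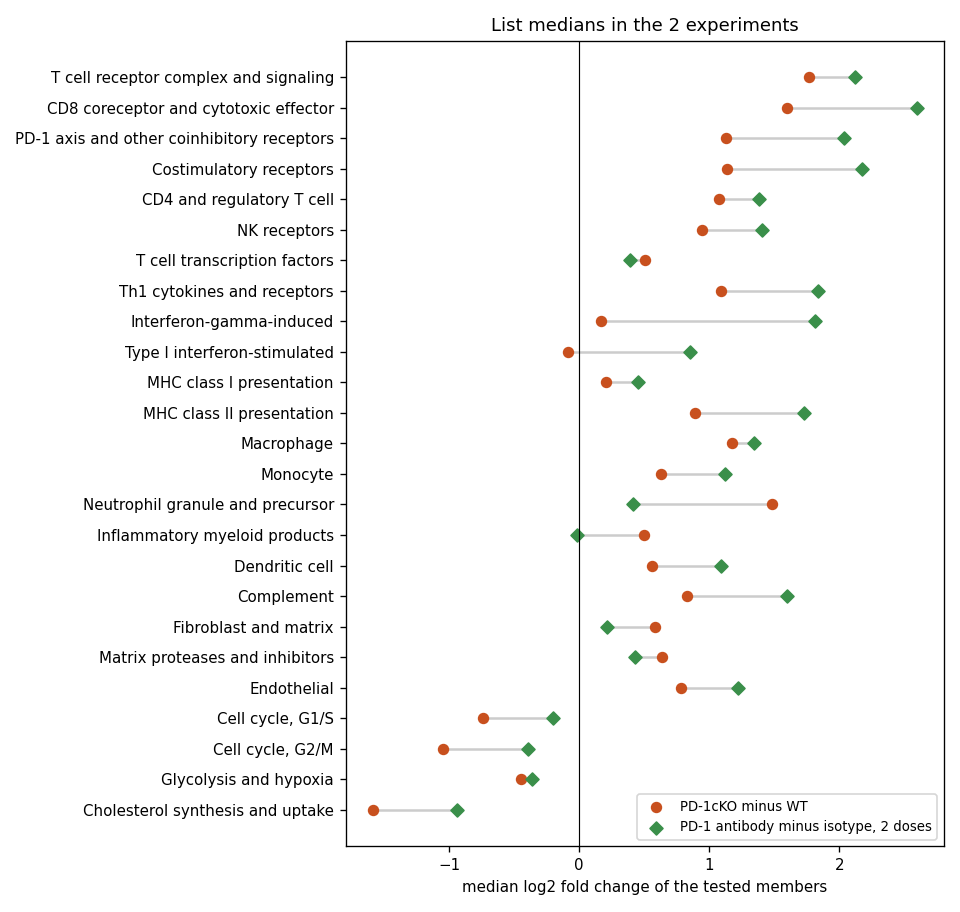
Median log2 fold change of the tested members of 25 lists for PD-1cKO minus WT (orange circles) and PD-1 antibody minus isotype after 2 doses (green diamonds). Among these lists the widest gap is in the interferon-gamma-induced list (0.17 against 1.81). The adipocyte (1.68 against 2.85) and skeletal muscle (-0.88 against 1.45) lists are not drawn. In the neutrophil granule list the PD-1cKO median is the higher one (1.49 against 0.42). It is also the higher one in the lists of inflammatory myeloid products, fibroblast and matrix, matrix proteases, and T cell transcription factors.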

How the data were processed

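RNA of whole tumors was sequenced by the authors as stranded, ribosome-depleted total RNA (50-base paired reads). Per the paper's methods, the authors aligned reads with OSA in Omicsoft Array Studio 10.0.1.118 to the mouse build B38 and Ensembl 86 and deposited FPKM per gene. Read depth is not given by FPKM, so intervals that need it were not computed. Stranding, 7SL RNA and the rescaling can each move FPKM. Here FPKM was divided by the sum over protein-coding genes (GENCODE M21) and multiplied by 1000000, and log2(value + 0.5) was fitted with limma 3.58.1 (R 4.3.3; lmFit, eBayes with trend) for genes with a mean of at least 1 over the 20 tumors. Fold changes are on that scale, which understates low genes. A gene was called at a Benjamini-Hochberg adjusted p under 0.01 and 2-fold. Ratios of 2 genes and the noncoding share used 2-sided permutation tests with 100000 resamples, or exact enumeration for 3 against 10. Labels name separate tumors but not separate experiments, so p-values measure the spread between these tumors.

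The members and gene lists were chosen with earlier results of these data known. Genes named were the first 2 members of each list, up to 2 with the smallest p, the 10 highest and 10 lowest changes at a mean of at least 5, and Pdcd1; further members are named for their role and were chosen after their values were seen. The fit was tested on simulated data: among 12970 genes, 37% and 92% of those changed by log2 1 and 2 were called. A change of log2 1 lies at the 2-fold limit, which alone removes many such genes, and 68% of those tested had an adjusted p under 0.01. The simulated spread was equal in both groups and independent between genes, unlike that of these tumors. All columns used were mapped to samples. Some list members enter the counts but are not reported here by name.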

Additional observations from a re-analysis of the deposited data

Results flagged for a closer look

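Of 268 sets of 10 tumors examined for single extreme tumors on the log2 scale (Dixon's ratio above its critical value), 18 stood out, where chance gives about 1 in 20. All were in the WT group. The ratio divides a gap by the range of its group, and PD-1cKO tumors spread more widely, so extremes there were less easily flagged. The summed adipocyte level of PD-1cKO tumor 8 (6526), for example, was not flagged. WT tumor 3 held the highest WT level of Cd3e (16.5), Cd8a (33.0), Cd8b1 (14.2), Gzmk (5.79), Klrd1 (22.2), Tox (2.75), Ifng (9.74), Cxcr6 (30.4), Ccl4 (26.4) and Camp (2.64), and of the summed T cell receptor list (183), each far from the other 9 WT tumors.

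WT tumor 6 was low in Gzmf (2.12) and Gzmd (0.332), and WT tumor 5 was high in Gzmc (46.9). WT tumor 9 was low in Ciita (16.8) and high in Bnip3 (475). WT tumor 8 was high in Adipoq (24.4) and in the summed adipocyte list (559).

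The responses to PD-1 deletion and to PD-1 antibody differed by the limma test of the difference for Fcgr4 (-1.70), Cd72 (-1.49), Il12b (-1.84) and, under 2-fold, the lysosomal thioesterase Ppt1 (-0.87), all on the log2 scale and all lower in the PD-1cKO response (adjusted p = 0.00516 for each).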

How the results depend on the processing

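The count of 1050 called genes became 680 at a pseudocount of 2, 493 with array weights, 253 (231 higher, 22 lower) with the noncoding share as a covariate, 0 with the identifier run as a covariate or with the 3 PD-1cKO tumors of the shared runs, and, added after seeing the data, 400 without PD-1cKO tumors 4 and 8; leaving out 1 tumor gave 668 (without PD-1cKO tumor 4) to 1403. FPKM as deposited gave 561 higher and 516 lower (52.1% higher, against 72.4%), with the median of all genes at -0.20 against -0.06 on the log2 scale. The cause of these changes was not tested. Numbers shared by tumors did not pair them (correlations of same-numbered tumors -0.287 to 0.145, none highest with its own number), and a replicate block gave 844 calls.

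The 3 genes that differed from the antibody response became 5 at a pseudocount of 2, 5 with FPKM as deposited, 0 with median-of-ratios scaling, 1 with a replicate block, and 0 to 10 when 1 tumor was left out. The excess of 7.76 points in the noncoding share was 8.31 (permutation p = 0.0373) with the 7 tumors of the first run and 6.10 to 10.1 when 1 tumor was left out; it passed 0.05 without PD-1cKO tumor 9 or WT tumor 1.

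Of 84 named genes called, none changed sign under any setting. All 84 lost the call with the identifier run as a covariate and with the 3 tumors of the shared runs, 39 with the noncoding share, 17 without PD-1cKO tumors 4 and 8, 16 with array weights and 12 with a replicate block. When some single tumor was left out 11 lost it, namely Cd28, Cxcl1, Cxcl16, Gzmf, Ifng, Il1b, Ltf, Mmp10, Ngp, Pdcd1lg2 and S100a8. Depth is not known from FPKM, so counting error cannot be separated from the spread between tumors.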

Other observations

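3 genes of sterol export and its control, which are no fixed list and were chosen after their values were seen, are given as values. Abca1, which exports cholesterol to lipoproteins, ran from 102 to 909 (median 198) in PD-1cKO tumors and from 31.5 to 95.9 (median 60.4) in WT tumors, with no overlap and a log2 fold change of 2.06 (limma, adjusted p = 0.000635). Abcg1, another exporter, ran from 68.6 to 536 (median 148) against 22.4 to 70.0 (median 40.5), with 9 of 10 PD-1cKO tumors above every WT tumor (log2 fold change 2.04; limma, adjusted p = 0.00048). Nr1h3 (LXR alpha), a sterol-activated factor, ran from 15.5 to 129 (median 31.6) against 8.15 to 21.8 (median 12.4), and 7 of 10 lay above every WT tumor (log2 fold change 1.49; limma, adjusted p = 0.00138). Whether these and the lower synthesis genes come from the same cells was not tested.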
